A study of Mus musculus with 7 samples.

Results

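The genes described here are *Terb1*, *Terb2*, *Majin*, *Spdya*, *Sun1* and *Sun2*, which encode proteins that attach telomeres to the nuclear envelope in meiotic prophase. They are 6 of the 21928 genes whose transcripts were summed from 7 bulk RNA-seq libraries of mouse testis. They were listed by name, but with earlier results of these data known. All 6 passed the filter on low values, which asks for a TPM, a transcript count per length and depth, of 1 or more in 3 or more of the 7 libraries and which 13630 genes passed. The libraries came from 4 wild-type pups and 3 *Meioc* KO pups, all on the C57BL/6N strain, with 1.5 testes of 1 pup in each. The *Meioc* KO pups carried the null allele *Meioc* tm1.1Dpc in every cell. Pups of both genotypes received WIN18446, a blocker of retinoic acid synthesis, at 0.1 mg/g from P2 to P8, and then retinoic acid at 0.0125 mg/g on P9. Their testes were taken 6.75 days later, when germ cells that entered differentiation together were enriched for preleptotene spermatocytes. MEIOC is a cytoplasmic partner of RNA-binding proteins in cells entering meiosis, and the comparison asks which telomere attachment transcripts depend on it at this stage.

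In meiotic prophase, the ends of chromosomes are held at the nuclear envelope so that homologous chromosomes can be moved and find each other. TERB1 binds the shelterin protein TRF1 at the telomere, TERB2 joins TERB1 to MAJIN, and MAJIN is anchored in the inner nuclear membrane. SUN1 spans the inner membrane and meets the KASH protein KASH5 of the outer membrane, which reaches dynein on microtubules, and SUN2 can take over part of this role. Speedy A, the product of *Spdya*, binds and activates CDK2 at telomeres. *Sun1* and *Sun2* are also expressed in many somatic cells, whereas *Terb1*, *Terb2* and *Majin* are known mainly from meiotic germ cells.

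The start regions of these genes are shown first, and any link between their makeup and the changes in level below was not tested. RefSeq promoters on GRCm38.p6 were found for 4 of the 6 members and for *Ccdc155*, the gene of KASH5, which RefSeq names *Kash5*. Each sequence below is written 5′ to 3′ on the strand of its gene and ends where the annotated gene begins, and capitals mark CG dinucleotides. The *Terb1* sequence lies at chr8:104509911-104510137 on the minus strand, *Spdya* at chr17:71551811-71552060 on the plus strand, *Sun1* at chr5:139200387-139200636 on the plus strand, *Sun2* at chr15:79742537-79742786 on the minus strand and *Ccdc155* at chr7:45204893-45205142 on the minus strand.
Terb1: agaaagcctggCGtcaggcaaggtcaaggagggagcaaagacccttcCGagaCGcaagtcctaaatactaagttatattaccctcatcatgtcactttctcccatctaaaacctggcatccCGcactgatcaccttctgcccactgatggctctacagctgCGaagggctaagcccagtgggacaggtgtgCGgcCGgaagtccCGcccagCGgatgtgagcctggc
Spdya: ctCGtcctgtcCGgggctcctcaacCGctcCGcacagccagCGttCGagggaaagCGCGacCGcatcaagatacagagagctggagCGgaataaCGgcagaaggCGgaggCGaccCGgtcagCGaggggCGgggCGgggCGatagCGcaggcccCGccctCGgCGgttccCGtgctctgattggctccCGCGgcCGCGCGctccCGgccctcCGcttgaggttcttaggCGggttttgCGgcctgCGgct
Sun1: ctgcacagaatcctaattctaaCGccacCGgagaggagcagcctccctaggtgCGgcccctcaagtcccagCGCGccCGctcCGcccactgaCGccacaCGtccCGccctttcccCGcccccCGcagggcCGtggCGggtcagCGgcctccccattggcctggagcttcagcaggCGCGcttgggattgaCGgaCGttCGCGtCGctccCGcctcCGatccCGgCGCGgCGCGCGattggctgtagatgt
Sun2: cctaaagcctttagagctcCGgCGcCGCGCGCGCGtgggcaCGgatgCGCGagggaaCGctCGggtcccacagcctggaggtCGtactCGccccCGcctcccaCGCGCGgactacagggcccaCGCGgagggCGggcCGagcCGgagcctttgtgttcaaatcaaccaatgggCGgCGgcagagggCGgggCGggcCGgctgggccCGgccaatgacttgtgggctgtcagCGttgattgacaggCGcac
Ccdc155: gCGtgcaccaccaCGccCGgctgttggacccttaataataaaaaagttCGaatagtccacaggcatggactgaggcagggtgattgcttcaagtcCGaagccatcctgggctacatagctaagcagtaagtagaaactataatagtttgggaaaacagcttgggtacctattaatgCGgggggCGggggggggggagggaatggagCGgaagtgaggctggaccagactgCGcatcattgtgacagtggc
Over the 250 bases before the RefSeq start, *Terb1* held 13 CG dinucleotides, of which 9 lie in the 227 bases shown, and *Ccdc155* held 9. *Spdya* held 33, *Sun1* 30 and *Sun2* 31, against a median of 6 over 32851 RefSeq promoters of the same length. GC content was 58.0% in *Terb1*, 53.2% in *Ccdc155*, 70.4% in *Spdya*, 70.0% in *Sun1* and 70.8% in *Sun2*, and its median over all promoters was 52.4%. RefSeq lists another start of *Sun1* inside the gene, and the 250 bases before it (chr5:139214908-139215157, plus strand, not shown) held 1 CG at a GC content of 43.6%. Around the starts shown, *Spdya*, *Sun1* and *Sun2* had similar GC content. The letters GCGGGAA, a core of E2F sites, CACGTG, the E-box, and CNCCTCAG, a STRA8-associated motif, were searched on both strands of the same 250 bases. None of the 3 was found in any of these 5 promoters, and they occurred in 3.82%, 6.02% and 6.42% of all promoters.

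The libraries held between 12537852 and 20552702 estimated counts, so that 3 counts, taken as the floor, correspond to between 0.151 and 0.236 CPM, the counts of a gene scaled to a common library total. Levels are given below as CPM scaled by edgeR's TMM method, and fold changes as wild type over *Meioc* KO on the log2 scale, so that a positive value is a higher level in wild type. *Meioc* itself was counted at 466, 658, 662 and 718 CPM in wild-type replicates 1 to 4 and at 399, 299 and 412 CPM in *Meioc* KO replicates 1 to 3. The order of the libraries followed their labels, although the KO allele still gave many counts (log2 fold change 0.76 with a standard error, SE, of 0.16, and Benjamini-Hochberg adjusted p = 0.0207 in the quasi-likelihood test of edgeR). The *Meioc* call was lost in the 5 fits that left out wild-type replicate 2, 3 or 4 or *Meioc* KO replicate 2 or 3, at an adjusted p of 0.0524 to 0.0638 in edgeR. The closest library to wild-type replicate 1 was of the other genotype, *Meioc* KO replicate 1, with a squared difference of 11.4 times counting noise. Wild-type replicate 1 differed from the other wild-type libraries by 14.03 to 23.3 times counting noise, and from KO replicates 2 and 3 by 29.4 and 18.6 times. *Meioc* KO replicate 1 was likewise closer to wild-type replicate 1 than to KO replicate 3, at 15.1 times, or KO replicate 2, at 27.3 times. *Meioc* KO replicate 2 was far from its own group, at 27.3 times from KO replicate 1 and 22.1 times from KO replicate 3. Results are also given without wild-type replicate 1, which was picked because its closest library was of the other genotype. A wider gap or a smaller p in those fits follows in part from that choice. The germ cell markers *Ddx4* (201 to 225 CPM in wild type) and *Dazl* (1015 to 1174 CPM) were abundant, as were *Sox9* and *Cldn11* of Sertoli cells, and the spermatid genes *Prm1* and *Prm2* had 0 counts in every library. Whole testis was sampled, so fewer cells of a type and less RNA per cell cannot be told apart in any of the values that follow.

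Of the 6 genes, 5 were higher in wild type than in *Meioc* KO, and 0 were lower, in edgeR's quasi-likelihood test at an adjusted p under 0.05. By comparison, 7.77% of all tested genes passed in the direction of wild type and 3.33% in that of KO. The called genes were *Terb1*, *Majin*, *Spdya*, *Terb2* and *Sun1*, and the median log2 fold change of the 6 was 1.37, against -0.0065 over all 13630 tested genes. In the same 5 genes, the wild-type libraries did not overlap the KO libraries, a pattern seen in 26.2% of all tested genes, with wild type higher in 15.4%. DESeq2 also called 5 higher and 0 lower, and limma on log2(TPM + 1) called 4 higher and 0 lower. An unadjusted p under 0.05 was found for 5 of the 6, against 4133 of all 13630 tested genes (edgeR). The counts of unadjusted p given for the lists below are to be read beside that share. Without wild-type replicate 1, the same 5 genes were called, among 1440 genes higher and 732 lower. Leaving out *Meioc* KO replicate 1 instead, the same 5 were called, among 1275 higher and 837 lower. The number of members called fell to 4 without wild-type replicate 2, to 3 without wild-type replicate 3 or *Meioc* KO replicate 2, and to 2 without *Meioc* KO replicate 3. Over all genes, the number called higher then ranged down to 113.

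**Figure D1:**
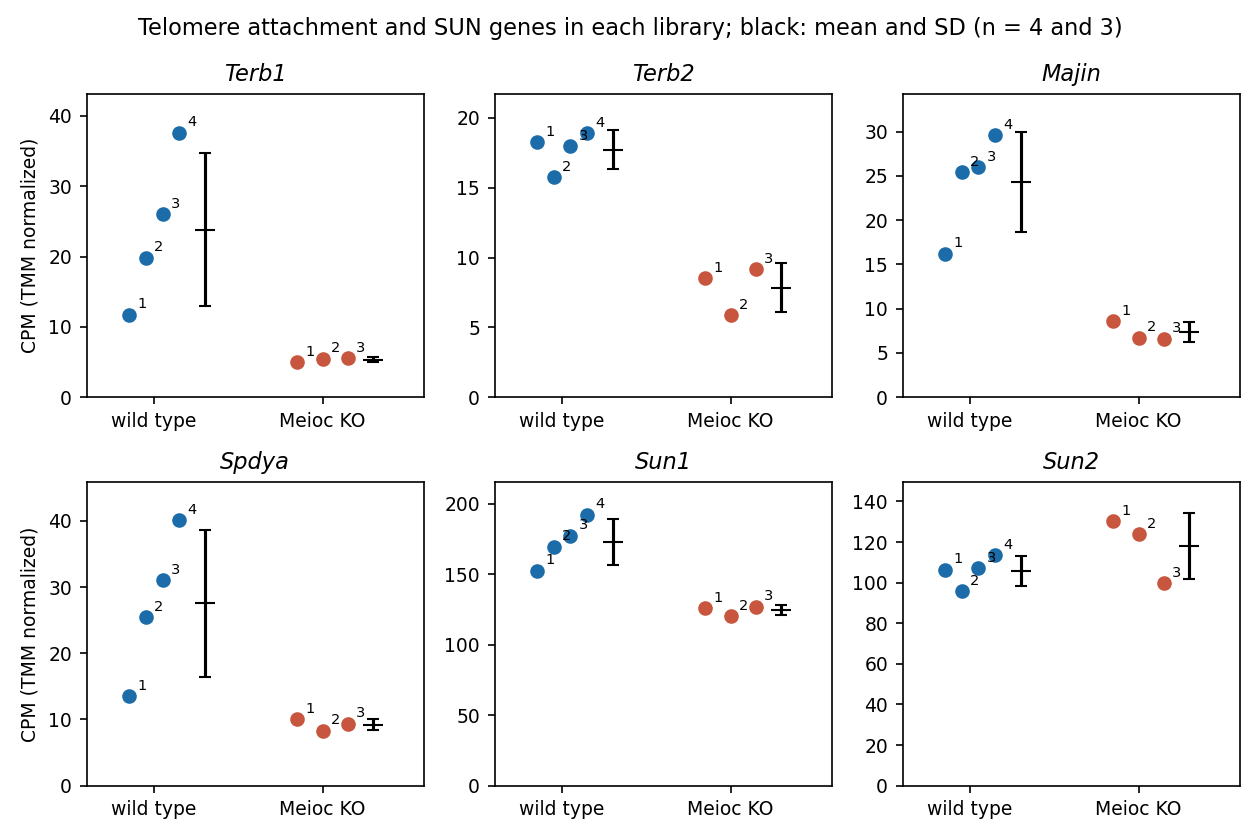
Level of each of the 6 genes in CPM scaled by TMM (vertical axes, from 0) in the 4 wild-type (blue) and 3 *Meioc* KO (red) libraries, numbered by replicate, with the mean and SD in black. The KO points lie below all wild-type points for every gene except *Sun2*, whose wild-type points at 95.9 to 113 CPM overlap the KO points at 99.7 to 130 CPM.

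*Terb1* (chromosome 8 of GRCm38, 104446719 to 104509910, minus strand) encodes the protein that links the attachment complex to TRF1. It was counted at 11.7, 19.9, 26.1 and 37.6 CPM in wild-type replicates 1 to 4 and at 4.95, 5.49 and 5.53 CPM in *Meioc* KO replicates 1 to 3. The KO libraries were close to each other, whereas the wild-type libraries spread 3.21-fold, and the lowest of them was 2.12 times the highest KO library. The log2 fold change was 2.17 ± 0.34 (SE, adjusted p = 0.0108, edgeR), which is 4.504-fold. This was the largest fold change among the 6 genes. Without wild-type replicate 1, it was 2.39 (adjusted p = 0.000612, edgeR), and without *Meioc* KO replicate 1 it was 2.12 (adjusted p = 0.0202, edgeR). Without *Meioc* KO replicate 3, the value of 2.20 was no longer past the threshold (adjusted p = 0.0561, edgeR).

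*Terb2* (chromosome 2, 122186272 to 122206397, plus strand) encodes the connector between TERB1 and MAJIN. Its levels were 18.3, 15.7, 17.98 and 18.9 CPM in the wild-type pups and 8.52, 5.85 and 9.17 CPM in KO. The wild-type libraries were nearly level, with wild-type replicate 1 in the second place, unlike in *Terb1*. The log2 fold change was 1.17 ± 0.16 (SE, adjusted p = 0.00696, edgeR), or 2.25-fold. Each of the 7 fits that left out 1 library still called *Terb2*, with log2 fold changes from 1.00 to 1.29.

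*Majin* (chromosome 19, 6184388 to 6224225, plus strand) encodes the membrane anchor of the complex. It was counted at 16.2, 25.4, 26.0 and 29.6 CPM in wild type and at 8.62, 6.72 and 6.62 CPM in KO. Wild-type replicate 1 was the lowest of its group and still 1.88 times the highest KO library. With a log2 fold change of 1.73 ± 0.21 (SE, adjusted p = 0.00394, edgeR), *Majin* was 3.32-fold higher in wild type. It was called in each of the 7 fits that left out 1 library, at 1.61 to 1.88.

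*Spdya* (chromosome 17, 71552061 to 71589533, plus strand) encodes Speedy A. It overlaps the pseudogene *Mettl4-ps1* on the same strand and *Trmt61b* on the other, and its counts are uncertain to the extent that reads were shared with the pseudogene. The levels were 13.5, 25.5, 31.1 and 40.1 CPM in the wild-type pups and 10.01, 8.31 and 9.38 CPM in KO. The lowest wild-type library was only 1.35 times the highest KO library, and the wild-type group spread 2.98-fold. The log2 fold change was 1.58 ± 0.31 (SE, adjusted p = 0.0175, edgeR), or 2.99-fold. It was 1.802 without wild-type replicate 1 (adjusted p = 0.000622, edgeR) and 1.64 without *Meioc* KO replicate 1 (adjusted p = 0.0287, edgeR). The call was lost without wild-type replicate 3 (1.52, adjusted p = 0.0537, edgeR), without *Meioc* KO replicate 2 (1.51, adjusted p = 0.0620, edgeR) and without *Meioc* KO replicate 3 (1.59, adjusted p = 0.0709, edgeR).

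*Sun1* (chromosome 5, 139200637 to 139249840, plus strand) encodes the inner membrane protein that meiotic telomeres are linked to. It was counted at 153, 170, 177 and 192 CPM in wild type and at 126, 120 and 127 CPM in KO. The groups did not overlap, but the difference was small beside that of the other called genes, at a log2 fold change of 0.48 ± 0.089 (SE, adjusted p = 0.0167, edgeR), or 1.39-fold. Without wild-type replicate 1 it was 0.53 (adjusted p = 0.00385, edgeR), and without *Meioc* KO replicate 1 it was 0.48 (adjusted p = 0.0245, edgeR). It missed the threshold without wild-type replicate 2 (0.48, adjusted p = 0.0507, edgeR), wild-type replicate 3 (0.46, adjusted p = 0.0552, edgeR), *Meioc* KO replicate 2 (0.45, adjusted p = 0.0526, edgeR) or *Meioc* KO replicate 3 (0.49, adjusted p = 0.0637, edgeR). On log2(TPM + 1), *Sun1* was at 0.25 (adjusted p = 0.103, limma), where the median of all genes was itself -0.23.

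*Sun2* (chromosome 15, 79724070 to 79742536, minus strand) encodes the related SUN protein. Its levels were 106, 95.9, 107 and 113 CPM in the wild-type pups and 130, 124 and 99.7 CPM in KO. Of the KO libraries, 2 lay above the wild-type libraries and 1 within their range, and the log2 fold change of -0.16 ± 0.10 (SE, adjusted p = 0.340, edgeR) was within their spread. Its sign was negative in the 16 alternative fits, from -0.39 to -0.079, and none of them called it.

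The 4 wild-type pups differed from each other far more in some of these genes than in others. For *Terb1*, the coefficient of variation over the wild-type libraries was 45.8%, where counting alone would give 5.05%, and for *Spdya* it was 40.4% against 4.72%. *Majin* varied by 23.4% (counting 5.09%), *Sun1* by 9.55% (counting 1.92%), *Terb2* by 7.78% (counting 6.03%) and *Sun2* by 6.87% (counting 2.47%). In the KO libraries, *Terb1* varied by 6.08%, within its counting error of 10.5%. Wild-type replicate 1 was the lowest and replicate 4 the highest of the group for *Terb1*, *Majin*, *Spdya* and *Sun1*, and the same 2 libraries had the fewest and the most total counts. The part of library depth in this order was not tested. Between the genotypes, total counts overlapped.

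**Figure D2:**
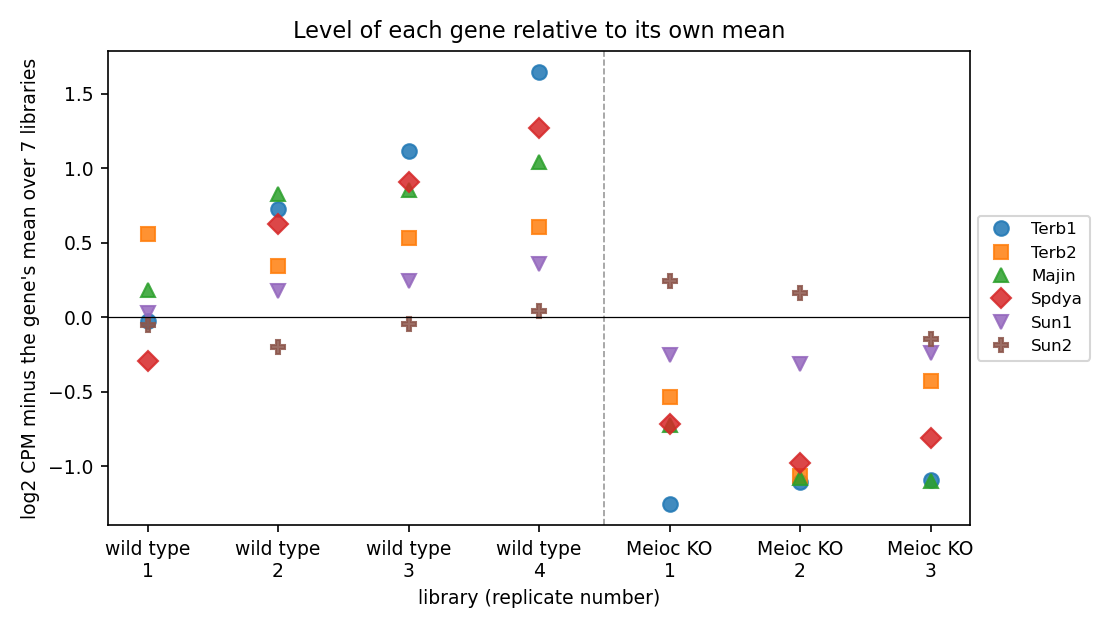
log2 CPM of each of the 6 genes minus its own mean over the 7 libraries (vertical axis), by library (horizontal axis), with a dashed line between the genotypes. *Terb1* and *Spdya* run from near or below 0 in wild-type replicate 1 to more than 1 in replicate 4, while *Terb2* is nearly level in wild type and *Sun2* stays near 0 throughout.

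Levels can be compared between genes only per length, as TPM. In wild type the order of mean TPM was *Sun1* (60.8 ± 4.43, SD, n = 4), *Spdya* (38.1 ± 14.5), *Sun2* (29.2 ± 3.05), *Majin* (23.4 ± 4.51), *Terb1* (20.8 ± 8.998) and *Terb2* (19.7 ± 2.29). The range of *Sun1* lay above that of *Spdya*, and each further neighbour in the order overlapped the next. In KO the order was *Sun1* (50.8 ± 2.57, SD, n = 3), *Sun2* (38.7 ± 7.29), *Spdya* (15.4 ± 0.691), *Terb2* (10.4 ± 1.64), *Majin* (8.39 ± 1.33) and *Terb1* (5.69 ± 0.655). Here only *Terb2* and *Majin* overlapped among neighbours. The mean of *Terb1* lay within the ranges of *Terb2* and *Majin* in wild type, and its own range, 11.4 to 32.6 TPM, was wider than either. *Terb1* was the lowest of the 6 in KO, and also in wild-type replicate 1.

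The ratio of *Sun1* to *Sun2* within each library does not depend on scaling between libraries. In TPM it was 1.81, 2.23, 2.16 and 2.18 in wild type and 1.22, 1.21 and 1.59 in KO. Every wild-type ratio was above every KO ratio, with a mean difference of 0.65 in log2 ratio. The two-sided exact permutation p was 0.0571, the smallest that the 35 splits of 4 against 3 libraries allow, so this test cannot pass 0.05. When 1 library was left out, the difference stayed between 0.58 and 0.78.

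The same ratio was taken for all 15 pairs of the 6 genes, in CPM, a comparison added after the values were seen. The pairs restate the fold changes of the single genes. The smallest adjusted p over the 15 was 0.0857 (exact permutation test, two-sided), reached by the 10 pairs whose groups did not overlap. Before adjustment, no pair could go below 0.0571 in this test. *Terb1* to *Majin* was between 0.723 and 1.27 in wild type and between 0.574 and 0.836 in KO, and this pair overlapped, as did *Majin* to *Spdya*, *Terb1* to *Terb2*, *Terb2* to *Majin* and *Terb2* to *Spdya*. *Terb1* to *Spdya* did not overlap, at 0.779 to 0.939 in wild type and 0.495 to 0.661 in KO. Each of *Terb1*, *Terb2*, *Majin* and *Spdya* was lower relative to both *Sun1* and *Sun2* in every KO library than in any wild-type library. For *Majin* to *Sun1*, for example, the ratio was 0.106 to 0.154 in wild type and 0.0521 to 0.0686 in KO.

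The genes of the KASH and other SUN proteins come next along the chain from telomere to cytoskeleton. Of 8 listed, 6 were tested, 2 passed as higher and 0 as lower (edgeR), 4 had an unadjusted p under 0.05, and their median log2 fold change was -0.18. DESeq2 called the same 2 higher and *Syne1*, the gene of a nesprin, lower. *Ccdc155* (chromosome 7, 45183624 to 45204892), which encodes KASH5, was counted at 17.4, 21.1, 20.7 and 23.3 CPM in wild type and at 8.46, 5.71 and 7.21 CPM in KO. The groups were far apart, and the log2 fold change of 1.53 ± 0.16 (SE, adjusted p = 0.00200, edgeR) was kept in each of the 7 fits that left out 1 library, at 1.40 to 1.67. *Spag4*, which encodes a SUN protein of spermatids, was at 3.23 to 5.64 CPM in wild type and 1.66 to 2.55 CPM in KO, a log2 fold change of 1.05 (adjusted p = 0.0266, edgeR). It was not called in the 5 fits without wild-type replicate 2, 3 or 4 or *Meioc* KO replicate 2 or 3, at an adjusted p of 0.0709 to 0.0830 in edgeR. *Syne4* had the lowest value of the list, at -0.71 (adjusted p = 0.137, edgeR).

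Shelterin caps the telomere to which TERB1 binds. Of its 7 tested genes, 1 was called higher and 1 lower, with a median log2 fold change of -0.072. *Tinf2*, which encodes the bridging subunit TIN2, was at 62.9, 71.0, 72.1 and 76.0 CPM in wild type and at 47.8, 34.0 and 43.5 CPM in KO (log2 fold change 0.75 with an SE of 0.12, adjusted p = 0.0112, edgeR). *Pot1a*, which encodes a subunit on single-stranded telomeric DNA, was at 38.6 to 48.4 CPM in wild type and 53.1 to 59.1 CPM in KO (log2 fold change -0.36, adjusted p = 0.0383, edgeR). These changes were opposite in direction, and leaving out *Meioc* KO replicate 3 ended both calls (adjusted p = 0.0530 for *Tinf2* and 0.119 for *Pot1a*, edgeR). The *Pot1a* call was also lost without wild-type replicate 2, 3 or 4 or *Meioc* KO replicate 2, at an adjusted p of 0.0715 to 0.105 in edgeR. *Terf1*, which encodes TRF1, the shelterin partner of TERB1, was at 23.0, 27.6, 28.0 and 31.2 CPM in wild type and at 22.3, 25.4 and 25.9 CPM in KO, with a log2 fold change of 0.17 (adjusted p = 0.368, edgeR) that was -0.090 on log2(TPM + 1).

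**Figure D3:**
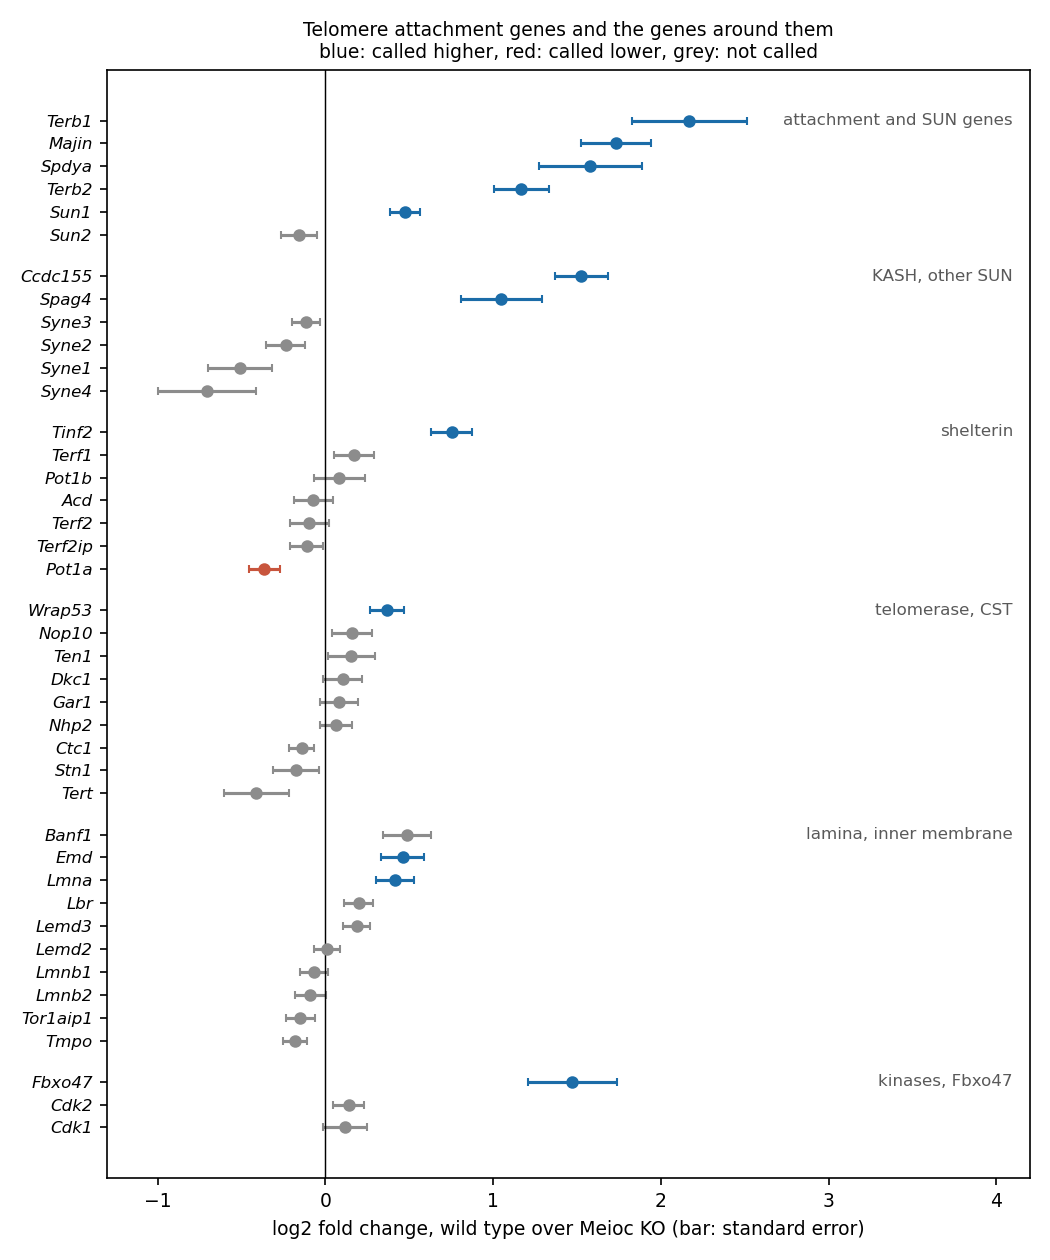
log2 fold change of wild type over *Meioc* KO (horizontal axis) with its standard error for the 6 attachment and SUN genes and for the tested genes of 5 related lists, ordered within each list, with colour for the edgeR call. *Terb1*, *Majin*, *Spdya*, *Ccdc155*, *Fbxo47*, *Terb2* and *Spag4* lie above 1, and most genes of the other lists lie within 0.5 of 0 on either side. The dynein and dynactin genes are not drawn.

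Among 3 genes of the kinases and control proteins of attachment, 1 was called higher and 0 lower (edgeR, with 1 at an unadjusted p under 0.05, and the same 1 called by DESeq2 and limma). *Fbxo47*, which encodes an F-box protein studied at meiotic telomeres, was at 11.5, 18.4, 23.6 and 28.2 CPM in wild type and at 6.87, 7.73 and 7.59 CPM in KO. Its libraries had the same order in wild type as those of *Terb1* and *Spdya*, and its log2 fold change was 1.47 ± 0.27 (SE, adjusted p = 0.0157, edgeR). It was not called without *Meioc* KO replicate 2 (adjusted p = 0.0510, edgeR) or *Meioc* KO replicate 3 (adjusted p = 0.0647, edgeR). *Cdk2*, the kinase that Speedy A activates, was at 107 to 126 CPM in wild type and 96.9 to 119 CPM in KO, and these ranges overlapped. Its log2 fold change of 0.14 (adjusted p = 0.351, edgeR) was -0.10 on log2(TPM + 1), and that of *Cdk1*, 0.12 (adjusted p = 0.576, edgeR), was -0.11 there.

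The wider machinery of telomere maintenance and the nuclear envelope was tested next. Of 9 genes of telomerase and the CST complex, 1 was called higher and 0 lower, with a median log2 fold change of 0.083. This was *Wrap53*, which encodes a telomerase holoenzyme protein (0.36, adjusted p = 0.0474, edgeR). Of the 9 settings other than leaving out a library, only 1, DESeq2, also called it, and it was not called in the 5 fits without wild-type replicate 2, 3 or 4 or *Meioc* KO replicate 2 or 3 (adjusted p = 0.0914 to 0.145, edgeR). DESeq2 called only *Wrap53* of this list, and *Tert*, the reverse transcriptase, was at -0.41 (adjusted p = 0.185, edgeR). Without wild-type replicate 1, *Tert* was called lower (-0.58, adjusted p = 0.0473, edgeR), and without *Meioc* KO replicate 1 it was not called (-0.45, adjusted p = 0.197, edgeR). Of 10 genes of the nuclear lamina and inner nuclear membrane, 2 were called higher and 0 lower (edgeR, with 6 at an unadjusted p under 0.05), with a median of 0.097. They were *Lmna*, which encodes A-type lamins (0.41, adjusted p = 0.0458, edgeR), and *Emd*, which encodes emerin (0.46, adjusted p = 0.0492, edgeR), and the same 5 fits called neither (adjusted p = 0.0953 to 0.124 for *Lmna* and 0.0872 to 0.127 for *Emd*, edgeR). Of the 9 other settings, 2 called each of them, DESeq2 and removal of length trends. DESeq2 called these 2 and *Banf1* (0.49, adjusted p = 0.0543, edgeR) higher, and *Banf1* was also called without wild-type replicate 1 (0.56, adjusted p = 0.0277, edgeR), whereas limma on log2(TPM + 1) called none higher and 1, *Tmpo*, lower (-0.18, adjusted p = 0.123, in edgeR).

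Of 23 dynein and dynactin genes, which encode the motor that moves the attached telomeres, 0 were called in either direction by edgeR, with 7 at an unadjusted p under 0.05 and a median log2 fold change of 0.0036. DESeq2 called 1 higher, *Dctn3*, and 2 lower, *Dync1i1* and *Ndel1*, and limma on log2(TPM + 1) called 0 higher and 4 lower. *Dync1i1*, a dynein intermediate chain, had the lowest value of the list outside the floor, at 46.8 to 63.2 CPM in wild type and 67.8 to 73.2 CPM in KO (-0.35, adjusted p = 0.0576, edgeR). Without wild-type replicate 1, 2 of these genes were called lower. Over all 6 related lists, 7 of 58 tested genes were called higher and 1 lower, and the median log2 fold change was 0.047, against 5 of 6 and 1.37 for the attachment and SUN genes. This split depended on scaling, with 4 higher and 5 lower when counts were not scaled beyond library size and 4 and 6 on log2(TPM + 1). Over all tested genes the split was 1059 higher and 454 lower, against 814 and 899 without scaling and 361 and 1637 on log2(TPM + 1).

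Cell type markers were compared in the same libraries. The germ cell markers summed to between 2168 and 2449 CPM in wild type and between 1515 and 1716 CPM in KO, and 4 of 7 tested, *Dazl*, *Taf7l*, *Tex14* and *Mael*, rose in wild type, and the median of the list was 0.36 on the log2 scale. *Dazl* was at 0.58 (adjusted p = 0.0112, edgeR) and *Ddx4* at 0.24 (adjusted p = 0.0813, edgeR). No germ cell marker was called lower by edgeR, 6 of the 7 had an unadjusted p under 0.05, and *Dnd1*, the lowest at -0.76 (adjusted p = 0.0571, edgeR), was called lower by DESeq2, by limma on log2(TPM + 1) and without wild-type replicate 1. On log2(TPM + 1), *Dazl* and *Taf7l* were called higher and *Tex14* and *Mael* were not. The fold changes of *Terb1*, *Terb2*, *Majin* and *Spdya* were each larger than the highest of the list, 0.73 for *Taf7l*, whereas that of *Sun1* was within its range. Of the 4 markers of undifferentiated spermatogonia, 1 was called lower and 0 higher (edgeR, with 2 at an unadjusted p under 0.05), and their values ran from -0.86 to 0.15, the latter for *Id4*. The called gene, *Zbtb16*, was lower in wild type, at 60.3 to 68.5 CPM against 84.6 to 161 CPM (-0.86, adjusted p = 0.0213, edgeR). Of the 4 markers of differentiating spermatogonia, 1 was called higher and 0 lower (edgeR, with 1 at an unadjusted p under 0.05), which was *Kit* (0.55, adjusted p = 0.0175, edgeR). On log2(TPM + 1), *Kit* was not called and *Ccnd2*, at -0.17 in edgeR, was called lower. Of the later spermatocyte markers, *Meiob*, at 3.69 to 7.55 CPM in wild type and 1.41 to 1.97 CPM in KO, was higher (1.56, adjusted p = 0.0174, edgeR), and *Piwil1* was at -0.70 (adjusted p = 0.106, edgeR). The part of germ cell number or stage in the fold changes of the attachment genes was not tested.

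Markers of somatic cells were compared as well. The 8 Sertoli cell markers summed to 1011 to 1091 CPM in wild type and 1055 to 1112 CPM in KO, with *Cldn11* at 0.0085 and *Sox9* at -0.34, neither called, and *Gata4* called lower (-0.33, adjusted p = 0.0253, edgeR). Of the Leydig cell markers, 0 of 6 were called by edgeR, with 2 at an unadjusted p under 0.05, and 2 were called lower by DESeq2, *Dlk1* (-0.45 in edgeR) and *Hsd3b1*. *Cyp11a1* ranged from 16.3 to 61.6 CPM in wild type and from 14.6 to 62.9 CPM in KO. Of the 4 peritubular myoid cell markers, among them *Acta2* (0.053) and *Myh11* (-0.023), 0 were called by edgeR, DESeq2 or limma, and 0 had an unadjusted p under 0.05. Of the 4 endothelial and the 4 macrophage markers, 0 were called by edgeR or DESeq2, 1 in each list had an unadjusted p under 0.05, and limma on log2(TPM + 1) called 1 in each lower. *Tm4sf1* was at -0.087, *Cd14* at 0.20, *Adgre1* at -0.040 and *Itgam* at 0.042.

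The genes with the most similar profiles were found for each of the 5 called members among the 10237 tested genes whose mean reached 10 CPM. Likeness was the root mean square difference of log2 CPM, each gene centred on its mean over the 7 libraries, so smaller values are closer. The genes named were picked by this likeness, so a similar order of libraries or fold change follows from the choice. Nearest to *Terb1* was *Rad21l*, a meiotic cohesin gene, at 0.122, followed by *Sap25* at 0.253 and *Ugt8a* at 0.293. *Rad21l* was counted at 31.2, 48.8, 67.0 and 82.2 CPM in wild type and at 11.9, 11.3 and 12.5 CPM in KO, with the same order of wild-type libraries as *Terb1*. Nearest to *Majin* were *Smc1b*, another cohesin gene, at 0.118, *Mei1* at 0.134 and *Tex12*, a synaptonemal complex gene, at 0.149. Nearest to *Spdya* were *Prdm9*, the methyltransferase gene that places recombination hotspots, at 0.0804, *Ugt8a* at 0.107 and *Mlf1* at 0.112. *Prdm9* was at 57.4, 108, 134 and 154 CPM in wild type and at 45.2, 38.6 and 38.8 CPM in KO, so that wild-type replicate 1 lay nearer to the KO libraries than to the rest of its group. Nearest to *Terb2* were *Top3b*, a topoisomerase gene, at 0.136, *Tex101* at 0.160 and *Gm773* at 0.170, and all of them were nearly level within wild type. For *Sun1* they were *Taf11* at 0.0316, *Strbp* at 0.0343 and *Sirt1* at 0.0346, with log2 fold changes of 0.43 to 0.48. The lists of the 5 members shared 1 gene, *Ugt8a*, between *Terb1* and *Spdya*.

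*Terb1* and *Terb2* have 1 annotated transcript each, and for the other 4 genes the reads of a gene are divided between transcripts by estimation. The 11 transcripts with at least 10% of their gene's TPM in some library were compared. The smallest of the 11 exact permutation p values was 0.0571 (adjusted p = 0.471 over the 11, two-sided), the smallest that this test allows. This was Spdya-204, a transcript of 1891 bases and 7 exons, which held 89.0% ± 1.21 (SD, n = 4) of the *Spdya* TPM in wild type and 96.6% ± 1.90 (SD, n = 3) in KO. The groups did not overlap, at 87.2% to 89.9% and 95.2% to 98.8%. Spdya-201, of 1877 bases and 7 exons, was estimated at 0 in wild-type replicate 1 and in every KO library. In wild-type replicates 2 to 4 it held 7.70%, 3.02% and 5.06%, so the share of Spdya-204 also rests on this estimation. Majin-202, of 1562 bases and 11 exons, held 70.5% ± 4.15 in wild type and 70.0% ± 8.43 in KO, and the rest was Majin-201. Sun1-201, of 4134 bases and 23 exons, held 66.4% ± 5.51 and 72.9% ± 6.08, with overlap. The transcripts of *Sun2* could not be placed firmly: Sun2-201 ranged from 0.011% to 50.7% of the gene among wild-type libraries and from 22.2% to 40.7% among KO libraries. The gene sums of *Sun2* were steadier than this, at a coefficient of variation of 6.87% in wild type.

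**Figure D4:**
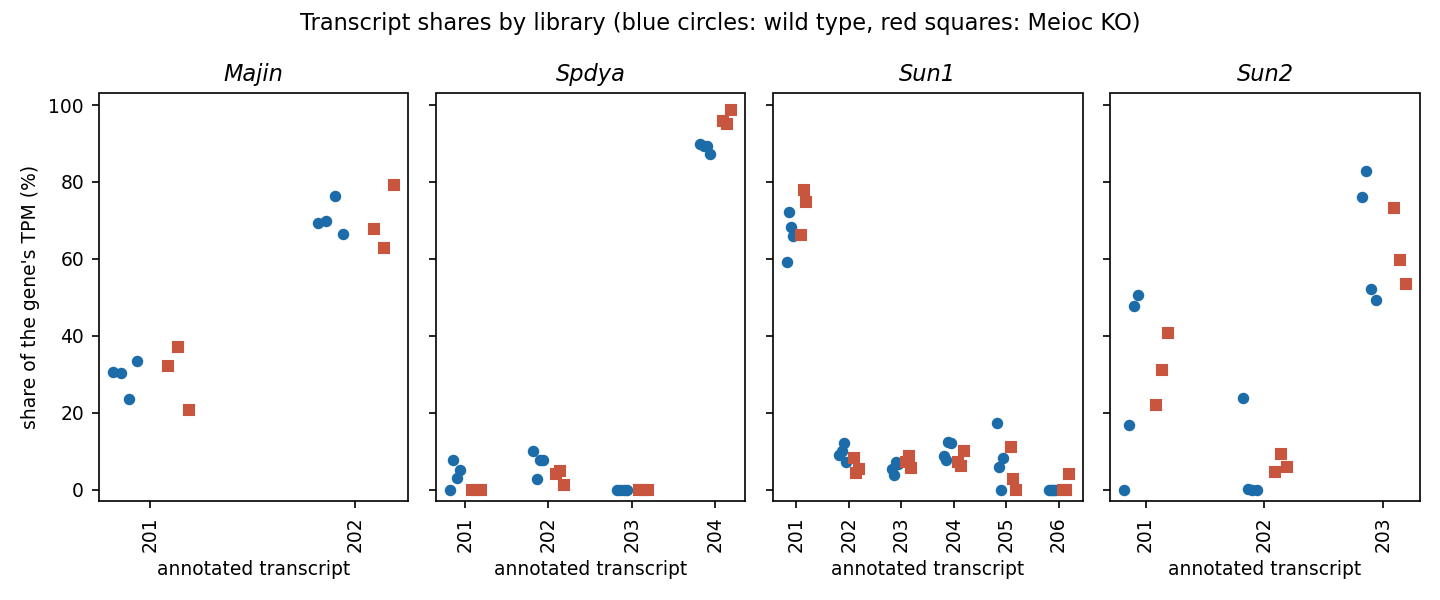
Share of each annotated transcript in the TPM of its gene (vertical axis, percent) for *Majin*, *Spdya*, *Sun1* and *Sun2*, with 1 point for each wild-type (blue circles) and *Meioc* KO (red squares) library. One transcript holds most of *Spdya* in every library, and the points of *Sun2* spread widely within wild type.

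Leaving out 1 library at a time moved the fold changes of the 6 genes little and their adjusted p more. The log2 fold change ranged from 1.85 to 2.39 for *Terb1*, from 1.33 to 1.802 for *Spdya*, from 0.41 to 0.53 for *Sun1* and from -0.27 to -0.079 for *Sun2*. The sign was kept in all 7 fits for each of the 6 genes. The highest adjusted p was 0.0561 for *Terb1*, 0.0293 for *Terb2*, 0.0354 for *Majin*, 0.0709 for *Spdya* and 0.0637 for *Sun1* (edgeR).

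**Figure D5:**
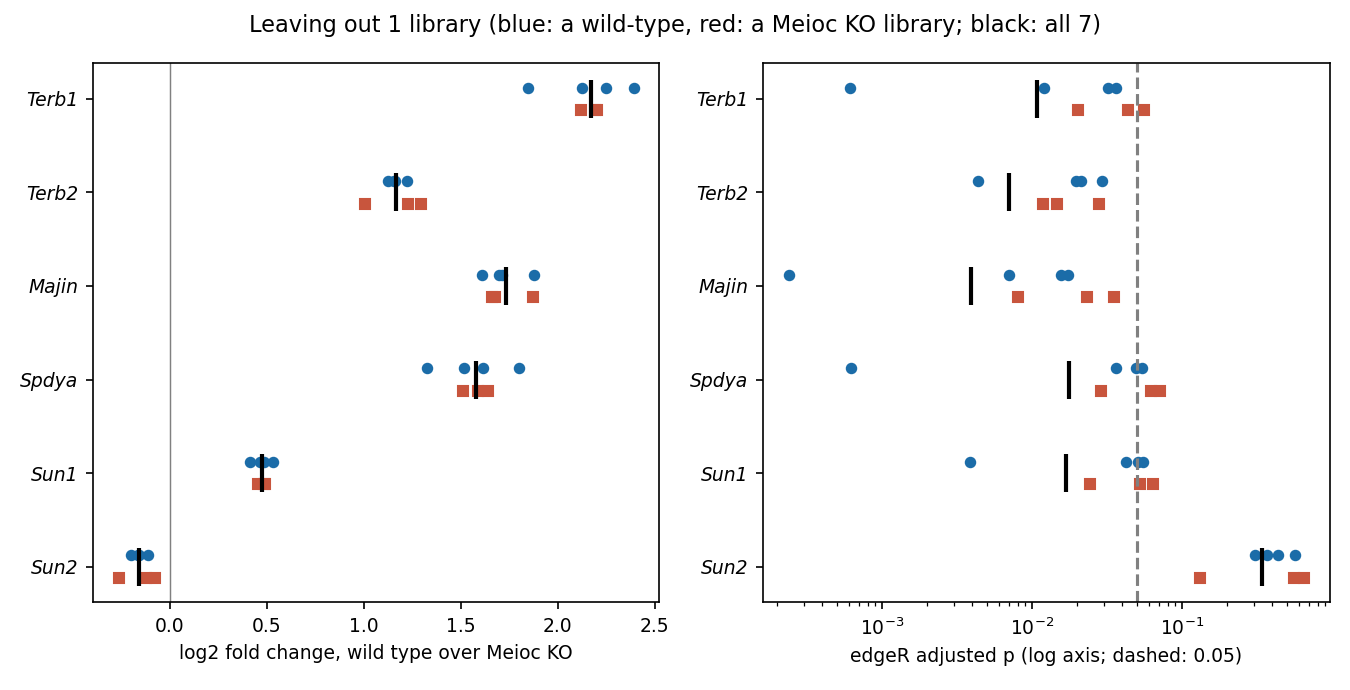
log2 fold change (left) and edgeR adjusted p on a log axis (right) of each of the 6 genes in the 7 fits that each left out 1 wild-type (blue) or *Meioc* KO (red) library, with the fit of all 7 libraries as a black bar and a dashed line at 0.05. *Terb2* and *Majin* stay left of the line in every fit, *Terb1* crosses it once, *Spdya* 3 times and *Sun1* 4 times.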

How the data were processed

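Bulk RNA-seq was measured in synchronized testes of 4 wild-type and 3 *Meioc* KO pups, and groups and replicate numbers were taken from the labels. Per the labels and the study's methods, the authors trimmed single-end reads of ribosomal RNA-depleted, stranded libraries with cutadapt 1.8 and quantified them with kallisto 0.44.0, with strand, on GENCODE Basic vM15 transcripts (mm10). They deposited estimated counts, which are not normalized between libraries, and TPM for each protein-coding transcript. TPM keeps no depth, so a rise of abundant transcripts in some libraries lowers all others there. ERCC spike-ins were added but not used.

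Identifiers were looked up in GENCODE vM21 (GRCm38), and the 119 of 43139 transcripts not found there, with 0.247% to 0.282% of counts, were dropped. Gene sums were rounded and scaled by TMM. The main test was the quasi-likelihood F test of edgeR 4.0.16 in R 4.3.3, with genotype as the only term. P values were adjusted by Benjamini-Hochberg over 13630 genes, those with TPM of 1 or more in 3 or more libraries, as in the study, and genes under 0.05 were called. Standard errors were the fold change divided by the root of F. Fits were tested on simulated data. Ratios and shares were compared by exact permutation tests in scipy 1.17.1. The closest 2 libraries differed by 7.84 times counting noise, so all 7 were counted as separate samples. Only the floor and the variation given for counting alone are limited to counting error. Standard errors rest on the quasi-likelihood fit and SDs on the libraries themselves, so both include the spread between pups.

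The genes and lists were chosen with earlier results of these data known. Named genes were the 6 members, *Meioc*, the highest and lowest of each pathway list with *Ccdc155*, *Terf1* and *Cdk2*, the study's markers, and the 3 nearest profiles of each called member. *Spag4*, *Lmna*, *Emd*, *Syne1*, *Dctn3*, *Ndel1*, *Gata4*, *Taf7l*, *Tex14*, *Mael*, *Dnd1*, *Id4*, *Ccnd2*, *Hsd3b1* and *Prm2* were named after their values were seen. Of 8 germ cell markers, 7 were matched by symbol. Alternatives were DESeq2 1.42.0 (the study's tool), RLE size factors, no scaling, limma 3.58.1 on log2 TPM with 1 or 0.1 added, no filter or filterByExpr, removal of length trends, a replicate block and leaving out each library.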

Additional observations from a re-analysis of the deposited data

Results flagged for a closer look

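*Adgre1*, a macrophage marker, was counted at 12.3 CPM in wild-type replicate 3 and at 10.97 to 11.2 CPM in the other wild-type libraries. It stands here because the gap to the nearest other library was 0.837 of the range of the group, above the limit for 4 samples. It was the only such case among 55 genes looked at in this way, and chance gives about 1 in 20. None of the 6 telomere attachment and SUN genes had such a gap among the wild-type libraries. The KO libraries, a smaller group, were not looked at in this way.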

How the results depend on the processing

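*Majin*, *Terb2* and *Terb1* were called under each of the 9 settings other than leaving out a library, with log2 fold changes of 1.37 to 1.73, 0.86 to 1.17 and 1.62 to 2.19. *Spdya* was called in 8 of them, and *Sun1* in 6. *Sun1* missed the threshold on log2(TPM + 1) (0.25, adjusted p = 0.103, limma) and log2(TPM + 0.1) (0.26, adjusted p = 0.107, limma), where the median of all genes was -0.23 and -0.25; the cause was not tested. *Sun2* was called under none of the 9. The labels give both genotypes replicate numbers 1 to 3, but same-numbered libraries did not deviate together (correlations across genes of -0.012, -0.089 and -0.168). With the replicate number as a block, 94 genes were called higher and 15 lower, 3 members and 2 pathway list genes were called higher and 0 pathway list genes lower, *Spdya* was at 1.27 (adjusted p = 0.0677, edgeR) and *Sun1* at 0.42 (adjusted p = 0.110, edgeR), and the paired difference in the *Sun1* to *Sun2* log2 ratio was 0.63.

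Over the 7 fits without 1 library, values ranged from 1.85 to 2.39 on the log2 scale for *Terb1*, 1.33 to 1.802 for *Spdya* and 0.41 to 0.53 for *Sun1*. The members called higher numbered 2 to 5. Over all genes, 113 to 1440 were called higher and 18 to 837 lower, and of the pathway lists 1 to 8 higher and 0 to 4 lower. The lowest counts were those without *Meioc* KO replicate 3.

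Over all genes, DESeq2 called 1456 higher and 875 lower, no scaling gave 899 lower, log2(TPM + 1) gave 361 higher and 1637 lower, and log2(TPM + 0.1) gave 274 higher and 1019 lower. Of the pathway lists, DESeq2 called 4 genes lower; RLE size factors, no filter and filterByExpr each left 4 higher; no scaling gave 4 higher and 5 lower; log2(TPM + 1) gave 4 and 6 and log2(TPM + 0.1) gave 4 and 4; removal of length trends gave 3 lower. On log2(TPM + 1) and log2(TPM + 0.1), 3 pathway genes not called by edgeR changed sign: *Terf1* to -0.090 and -0.092, *Cdk2* to -0.10 and -0.10, and *Cdk1* to -0.11 and -0.11. Without 1 library, the difference in share of TPM, in percentage points, ranged from -5.20 to 3.004 for Majin-201, -3.004 to 5.20 for Majin-202, -9.79 to 7.10 for Sun2-201, -6.53 to 1.40 for Sun2-202 and -2.82 to 8.65 for Sun2-203. Of 287 values for 18 genes, *Meioc* and the named pathway genes, 209 kept the direction and the side of the threshold, 60 lost the call, 12 gained one and 6 changed sign.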

Other observations

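Some genes of the same machinery were at the limit of detection in these testes. *Sun3*, which encodes another SUN protein of spermatids, had 3, 1, 3 and 8 counts in wild-type replicates 1 to 4 and 2, 3 and 6 counts in *Meioc* KO replicates 1 to 3. *Sun5* had 1 count in wild-type replicate 3 and 0 in the other libraries. *Dynlrb2*, a dynein light chain gene, had 3, 2, 3 and 1 counts in wild type and 2, 0 and 0 in KO, all at or under the floor of 3 counts, so no fold change is given. Without it the median log2 fold change of the dynein and dynactin genes was 0.0035 and that of all 6 related lists 0.043. The spermatid gene *Tnp1* had at most 3 counts in any library. A difference between the genotypes in these genes was not detectable at this depth.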
